A study of Mus musculus with 2 samples.

Results

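The inflammatory effector genes Il1a, Il1b, Il6, Tnf, Cxcl1, Ccl2, Ccl5, Cxcl10, Nos2 and Icam1 were examined in MIN6 cells, a mouse insulinoma line that keeps many features of pancreatic β cells. They were chosen by name as genes that NF-κB can induce, and every probe whose RefSeq accession belongs to one of them was taken. This gave 10 probes, 1 for each of the 10 genes, of 27224 probes naming 20653 genes on the array. MIN6 cells at passages 15 to 20 had been given a lentivirus made from the vector PLVX-IRES-ZsGreen-mFTO, which carries mouse FTO (the FTO-labelled array), or one made from the empty vector PLVX-IRES-ZsGreen (the control-labelled array). Both cultures were therefore exposed to virus, to polybrene and to the green fluorescent marker, and both were grown in medium with 15% serum. The labels do not name a clone. RNA from each culture, labeled with a single dye, went on an Agilent array of its own, 1 per condition. There is thus no replicate check of any difference below and p-values were not calculated. Having only 1 array per condition limits the precision of all values. An array is called by its label throughout, for the reason given with Fto below.

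NF-κB is a family of transcription factors that is held in the cytoplasm by inhibitor proteins. Signals such as interleukin-1, tumor necrosis factor or oxidants lead to phosphorylation and loss of the inhibitor, and the freed dimer enters the nucleus and binds short κB sites near its target genes. In pancreatic islets the pathway is known for its part in the response to inflammatory cytokines, in which β cells can produce chemokines that attract leukocytes and, through Nos2, nitric oxide.

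The κB motif is short and degenerate, so the bases before the start of a few of these genes are shown, 2 genes whose probe stayed near background on both arrays (Cxcl1, Il6), the gene with the difference reported below (Il1a) and a chemokine gene with a signal far above background (Cxcl10). The sequences are the 250 bases before the gene start in RefSeq on GRCm38.p6, read 5′ to 3′ on the strand of the gene, with matches to the κB motif on either strand in capitals. They lie at chr5:92348890-92349139 on the minus strand (Cxcl10), chr5:90890995-90891244 on the plus strand (Cxcl1), chr5:30012864-30013113 on the plus strand (Il6) and chr2:129309973-129310222 on the minus strand (Il1a).
Cxcl10: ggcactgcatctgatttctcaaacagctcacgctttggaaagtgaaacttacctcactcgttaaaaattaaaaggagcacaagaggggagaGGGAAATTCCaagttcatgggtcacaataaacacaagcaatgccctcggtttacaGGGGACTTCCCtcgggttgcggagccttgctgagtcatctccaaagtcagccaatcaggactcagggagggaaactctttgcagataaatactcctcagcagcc
Cxcl1: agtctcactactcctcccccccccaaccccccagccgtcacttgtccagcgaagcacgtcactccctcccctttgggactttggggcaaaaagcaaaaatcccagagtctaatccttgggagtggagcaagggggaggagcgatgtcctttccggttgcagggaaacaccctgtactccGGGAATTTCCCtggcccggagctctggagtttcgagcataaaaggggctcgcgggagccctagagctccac
Il6: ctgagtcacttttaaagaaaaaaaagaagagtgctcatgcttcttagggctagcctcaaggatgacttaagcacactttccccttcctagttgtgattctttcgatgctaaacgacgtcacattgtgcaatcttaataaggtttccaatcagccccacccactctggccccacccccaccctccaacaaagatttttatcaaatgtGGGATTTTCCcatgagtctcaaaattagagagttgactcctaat
Il1a: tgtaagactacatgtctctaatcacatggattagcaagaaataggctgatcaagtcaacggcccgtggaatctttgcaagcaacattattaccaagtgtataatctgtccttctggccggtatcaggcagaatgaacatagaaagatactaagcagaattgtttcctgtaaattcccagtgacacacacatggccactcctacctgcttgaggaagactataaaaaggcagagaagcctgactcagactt

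The sequence table held 7 of the 10 genes, without Ccl2, Ccl5 and Nos2. The κB motif was found before the start of Cxcl10, Cxcl1 and Il6, that is, of 3 of these 7 genes, and in 7.25% of all 32851 windows of this length in the table. In Cxcl10 the first match begins 159 bases before the start, and a pair of overlapping matches begins 104 and 103 bases before it. In Cxcl1 a pair of overlapping matches, one on each strand, begins 71 and 70 bases before the start, and in Il6 the match begins 44 bases before it. The κB motif was searched as a pattern that begins with GGG and ends with CC, so κB sites with other letters there are not counted. The windows of Il1a, Il1b, Tnf and Icam1 held no match, which says only that this pattern is not in this window. Cxcl10 also held the interferon response motif (ISRE), searched on both strands, at 213 bases before the start, and 2.98% of all windows held it. The AP-1 motif TGAGTCA, searched on both strands, was found in Il1a, Il6 and Cxcl10 and in 4.46% of all windows.

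Before the results of single genes, the arrays as a whole were compared. The FTO-labelled array was brighter, with a median ratio of 1.28 over 34974 spots well above background on both arrays, and quantile normalization removes this. The processed signals of 150 negative control spots reached at most 4.66 on the FTO-labelled array and 3.02 on the control-labelled array, whereas probes well above background began at 14.0 and 10.7. In 6 of 35 blocks of the FTO-labelled array and 2 of the control-labelled array, spots of repeated probes lost signal. Among the 10 genes such spots belong to Il1b, Tnf, Ccl2 and Ccl5. Fto, the overexpressed gene, had signals of 7301 and 5179, with 0.06 as the normalized log2 difference and 0.20 as its spot error. Fto thus does not tell the arrays apart, and which array is which was taken from the labels alone. Whether this probe reads the Fto copy carried by the vector is not known, because the probe sequence was not at hand. The study reported FTO overexpression in MIN6 cells by Western blot, which measures protein. The 10 β cell marker genes, among them Ins2 (signals of 276722 and 320363) and Mafa (6528 and 5429), were well above background on both arrays.

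Expression of 8 of the 10 genes was well above background on the FTO-labelled array and of 7 on the control-labelled array. Over all named genes these shares were 86.7% and 88.8%. Il1b, Tnf, Ccl2, Ccl5, Cxcl10, Nos2 and Icam1 were well above background on both arrays, Il1a on the FTO-labelled array only, and Il6 and Cxcl1 on neither. Of all named genes 0.794% were well above background on the FTO-labelled array only, 2.91% on the control-labelled array only, 85.9% on both and 10.4% on neither. Probes differ in how strongly they bind their target, so the signals of different genes are not ranked against each other. From RNA of a whole culture it cannot be told apart whether a few cells express a gene strongly or many weakly.

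**Figure D1:**
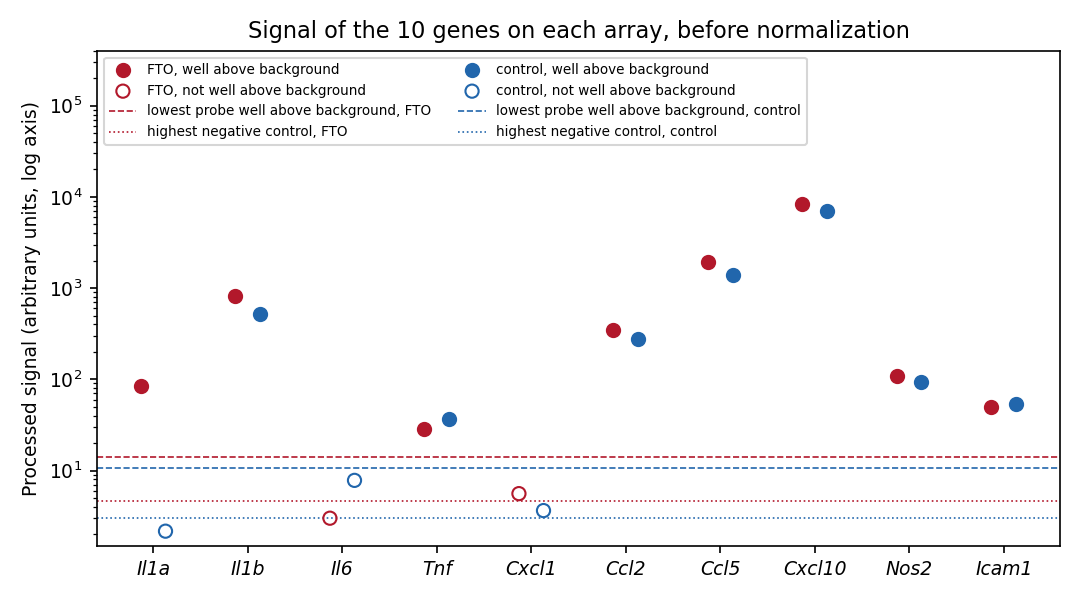
Processed signal of the single probe of each gene (log axis, arbitrary units) on the FTO-labelled array (red) and the control-labelled array (blue), with open circles for probes not well above background and lines for the lowest probe well above background and the highest negative control spot of each array. Il1a stands at 84.1 on the FTO-labelled array and at 2.16 on the control-labelled array, while Il6 and Cxcl1 lie under the dashed lines on both.

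The difference between the arrays was computed on the log2 scale after quantile normalization, as FTO minus control. The spot error beside it combines the errors that the image software estimates for the spots of both arrays, also on the log2 scale. For a probe with several spots it is the mean error of a single spot, not the error of their average. It holds no variation between cultures. Among the 8 genes that could be compared, 1 differed by more than 2-fold, Il1a, which was higher on the FTO-labelled array. Of all 18507 named genes tested 3.21% differed by more than 2-fold (1.44% of those well above background on both arrays), and 1.31% were higher. With signals not well above background replaced by their bound 2.07% differed and 0.929% were higher. At a limit of 1.5-fold the count of the 8 genes was also 1, and 8.49% of all named genes passed. The remaining 7 genes lay between -0.45 (Tnf) and 0.30 (Il1b). Of the 8 genes 5 were above 0 and 3 below, with a median of 0.04, against 51.6% above 0 and a median of 0.0064 over all named genes. With the 75th percentile scaling the median of the 8 genes was -0.13 and that of all named genes -0.06. Il1a enters these counts through the FTO-labelled array alone.

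Il1a encodes interleukin-1α, a cytokine that acts through the type 1 interleukin-1 receptor and is released by damaged cells. Its single probe (NM_010554) had 1 spot, with a processed signal of 84.1 (error 8.85) on the FTO-labelled array and 2.16 (error 2.16) on the control-labelled array. The latter lies within the range of the negative control spots of that array, from 2.12 to 3.02. Before background subtraction the median pixel of the spot read 143 against a local background of 35 on the FTO-labelled array and 48 against 28.5 on the control-labelled array. Il1a was thus at least 7.44-fold higher on the FTO-labelled array (log2 bound 2.90). The bound sets its normalized signal against the dimmest probe that was well above background on the control-labelled array, because a signal in the range of the background has no measured level. It fell to a log2 bound of 1.17 when the background was corrected by normexp with an offset of 50, which compresses dim signals, and to 2.56 with the 75th percentile scaling.

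How far a single spot can stray was read from the probes printed 10 times. Of 610 spots of the 61 repeated probes that were not well above background on the FTO-labelled array, outlier spots included, 0 reached the Il1a signal, which allows a share of up to 0.492%, and the highest read 67.7. On the control-labelled array, 44 repeated probes with every spot well above background had a median signal within 2-fold of 84.1. The spots of these probes stood at 0.584 to 4.67 times the median of their probe. On the FTO-labelled array 43 repeated probes were taken by the same rule, with spots at 0.230 to 2.90 times the median of their probe. Because this rule required every spot to be well above background, these probes cannot show how often a spot of this level drops to background. It may also cut the low end of both ranges. The spots read here share probes and arrays, and the limit of 0.492% covers counting error only.

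The Il1a spot lies outside the areas in which repeated spots lost signal. The spots next to it in the same column of the array were read after its value had been seen. The 3 spots that follow Il1a in the column were also more than 4 times brighter on the FTO-labelled array, so that 4 consecutive spots had ratios of 38.9, 4.29, 7.42 and 5.76. These 3 belong to Cmklr1 (19.8 and 4.62) and to probes without a symbol here (103 and 13.8, 26.7 and 4.65). Of all 37062 spots well above background on at least 1 array 0.434% had a ratio above 4. The next spot in the column, Degs2, was bright, with 7760 and 5388, and had a ratio of 1.44, and the spot before Il1a, Palld, had 293 and 200 and a ratio of 1.47. The local background of Il1a was 35 on the FTO-labelled array, equal to the highest of its 24 neighbors, whose median was 31.5, and 28.5 on the control-labelled array. At the 3 spots after it the local background was between 31 and 33.5 on the FTO-labelled array and between 30.5 and 31 on the control-labelled array, where the other spots read in the column had 26 to 29. No second Il1a probe is on the array, and the part of this neighborhood in the Il1a signal was not tested.

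Il1b encodes interleukin-1β, which is made as a precursor and cut by caspase-1. Its probe (NM_008361) was printed 10 times, so each array gives 10 readings of the same RNA. On the FTO-labelled array the lowest spot read 781, the median spot 830 and the highest 856, and on the control-labelled array 479, 516 and 582. The ranges did not overlap before normalization, and at each of the 10 positions the ratio, between 1.46 and 1.69, was above the 1.28 of the arrays as a whole. After normalization the log2 difference was 0.30 (spot error 0.20), a 1.23-fold higher signal, and 8 alternatives gave values from 0.23 to 0.33. The SD between spots of an array was 0.06 and 0.08 on the log2 scale, so the difference is larger than the spread within an array, and the spread between cultures is unknown. Of 2164 named genes with a mean log2 signal between 8 and 10, the central 95% lay between -0.60 and 0.43, a range that includes Il1b. The 2 positions in an area of lost signal had readings of 850 and 856 on the FTO-labelled array, among the highest of the probe.

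**Figure D2:**
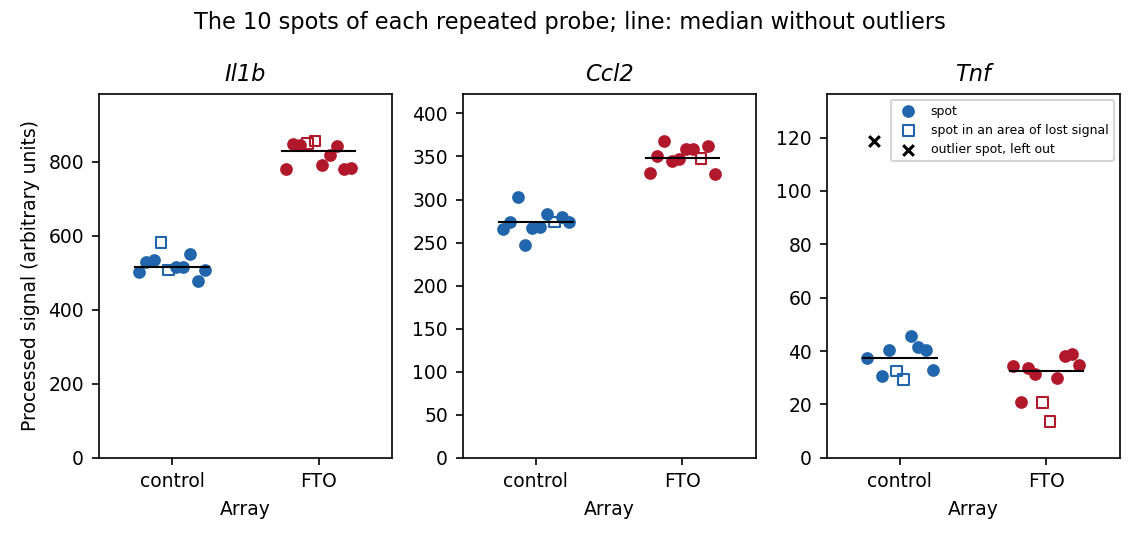
The 10 spots of the probes of Il1b, Ccl2 and Tnf on each array (processed signal before normalization, arbitrary units), with squares on both arrays for positions in an area of lost signal of the FTO-labelled array, a cross for the outlier spot that was left out and a line for the median of the spots kept. The Il1b spots run from 781 to 856 on the FTO-labelled array and from 479 to 582 on the control-labelled array, while the Tnf spots of both arrays overlap.

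Tnf encodes tumor necrosis factor, a cytokine that both activates NF-κB and is induced by it. Its probe (NM_013693), also printed 10 times, was dim. The spots read 13.6 at the lowest, 32.6 at the median and 38.8 at the highest on the FTO-labelled array, and 29.3, 37.3 and 45.5 on the control-labelled array, where a 10th spot of 119 carried an outlier flag and was left out. The spots of both arrays overlapped before normalization. At each of the 9 positions with both spots kept, the ratio was below the 1.28 of the arrays as a whole. The control-labelled array was brighter at 7 of these positions and the FTO-labelled array at 2. Outside the areas of lost signal the ratio was below 1.28 at each of 7 positions. The log2 difference was -0.45 (spot error 0.28.) The SD between spots was 0.49 on the FTO-labelled array and 0.22 on the control-labelled array. A pair of positions in an area where repeated spots lost signal on the FTO-labelled array read 13.6 and 20.7 there, and 29.3 and 32.5 on the control-labelled array. Without them the log2 difference was -0.35. It was -0.79 with the 75th percentile scaling, -0.13 with normexp and -0.62 with the outlier spot kept, and below 0 under each of the 8 alternatives.

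Il6 encodes interleukin-6, a cytokine of the acute phase response. Its spot (NM_031168) read 3.0 on the FTO-labelled array and 7.80 on the control-labelled array, and was not well above background on either. The latter signal passed the weaker flag of the image software, for a signal positive and significant over background. No fold is given for a pair of signals near background.

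Cxcl1 is a chemokine that draws neutrophils through the receptor Cxcr2. Its spot (NM_008176) read 5.58 on the FTO-labelled array and 3.64 on the control-labelled array, not well above background on either, although both passed the weaker flag. The median pixel of the spot was 55 against a local background of 32.5 on the FTO-labelled array and 50 against 24.5 on the control-labelled array.

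Ccl2 is a chemokine that draws monocytes through the receptor Ccr2. The 10 spots of its probe (NM_011333) read from 330 to 368 on the FTO-labelled array, with a median of 349, and from 247 to 303 on the control-labelled array, with a median of 274. These ranges did not overlap, but the ratio at the 10 positions, between 1.20 and 1.39, was above the 1.28 of the arrays as a whole at 4 positions and below it at 6. The log2 difference after normalization was 0.05 (spot error 0.20). With the 75th percentile scaling it was -0.07. The SD between spots was 0.05 and 0.07 on the log2 scale. Before normalization Ccl2, like Il1b, was brighter on the FTO-labelled array at each position.

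Ccl5 is a chemokine for T cells and monocytes. Its single spot (NM_013653) read 1947 (error 195) on the FTO-labelled array and 1376 (error 138) on the control-labelled array. The log2 difference was 0.10 (spot error 0.20), which is smaller than the error. The spot lies in an area where repeated spots lost signal on the FTO-labelled array. It has no other spot, so no value can be given without that area. The 21 spots around it that were well above background on both arrays had a median ratio of 1.31, close to that of the arrays as a whole.

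Cxcl10 is a chemokine induced by interferons as well as by NF-κB, which acts on the receptor Cxcr3 of activated T cells. Its single spot (NM_021274) read 8340 (error 834) on the FTO-labelled array and 7039 (error 704) on the control-labelled array. Both lay far above the lowest signal well above background. After normalization the log2 difference was -0.18 (spot error 0.20), between -0.19 and -0.17 under 8 alternatives. The ratio of its signals, 1.18, was below that of the arrays as a whole, so the sign turns between the signals as deposited and the normalized values. Of 9991 named genes with a mean log2 signal above 10, the central 95% lay between -0.29 and 0.29.

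Nos2 encodes the inducible nitric oxide synthase, the enzyme that makes nitric oxide in cytokine-treated β cells. Its single spot (NM_010927) read 109 (error 11.6) on the FTO-labelled array and 93.2 (error 9.76) on the control-labelled array. The log2 difference was 0.04 (spot error 0.22.) It was -0.20 with the 75th percentile scaling, and -0.07 under normexp, so its sign depends on the processing. The genes around nitric oxide were also measured, from Nos1 (54.1 and 50.3) to Gch1 (82403 and 56682), the enzyme that begins the synthesis of the cofactor tetrahydrobiopterin. All 10 of this list were well above background on both arrays, 4 above 0 and 6 below, with 0 past 2-fold and a median of -0.03.

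Icam1 encodes an adhesion molecule to which leukocyte integrins bind. Its single spot (NM_010493) read 49.1 (error 6.36) on the FTO-labelled array and 53.1 (error 6.10) on the control-labelled array. The log2 difference was -0.24 (spot error 0.25.) It was -0.54 with the 75th percentile scaling, and 0.07 under normexp, so its direction is not settled. Of the integrin chains that bind it, the brightest probe of Itgal stood at 313 and 229, a log2 difference of 0.16, that of Itgam at 1426 and 1248 (-0.19), and the probe of Itgb2, their shared partner chain, at 192 and 222 (-0.47). The Itgal spot lies in an area of lost signal of the control-labelled array and the Itgb2 spot in one of the FTO-labelled array.

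**Figure D3:**
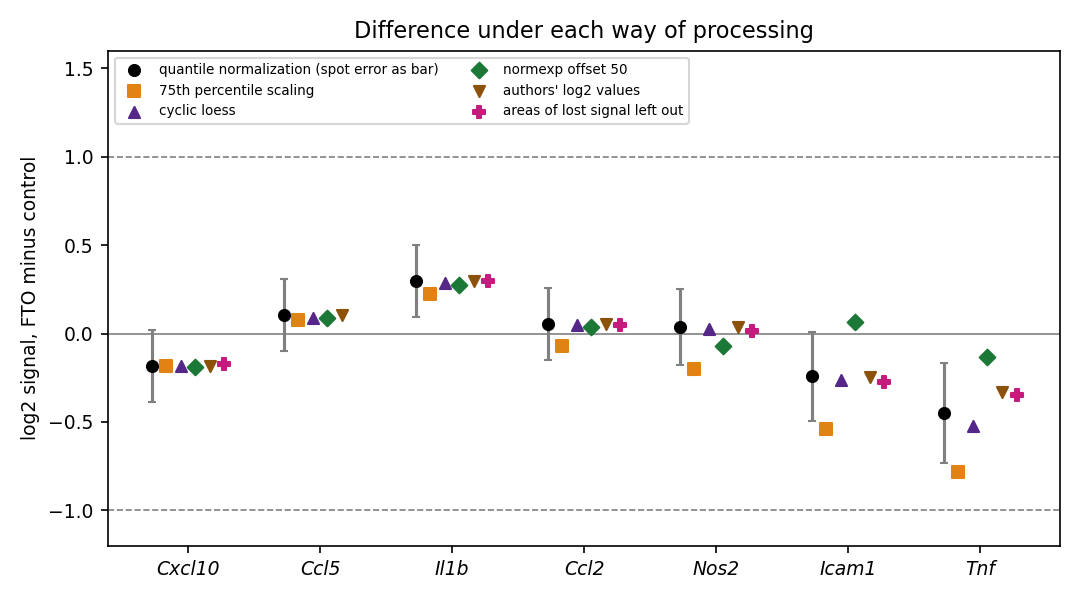
Log2 signal, FTO minus control, of the 7 genes well above background on both arrays under 6 ways of processing, with the spot error as a bar on the quantile normalized value and dashed lines at 2-fold. Cxcl10, Ccl5, Il1b and Tnf keep their sign under each setting shown, Ccl2, Nos2 and Icam1 cross 0 under at least 1, and Ccl5 has no value with the areas of lost signal left out.

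The partners of these genes were described with lists chosen from textbook knowledge, with the brightest probe of each gene and bounds where only 1 array was well above background. Of all named genes 1.7% were past 2-fold by this rule. Of the 21 receptors and partners of the cytokines and chemokines, 18 were well above background on both arrays, beside 85.9% of all named genes. Among the 18 was Il1r1, the signaling receptor of both interleukin-1 forms, at 173068 and 160360 (log2 difference -0.06). Tnfrsf1a, the main receptor for tumor necrosis factor, stood at 24601 and 16591 (0.13 on this probe and -0.04 on a second). Il6st, the shared signaling chain of the interleukin-6 family, stood at 7872 and 4946 (0.25, in an area of lost signal of the FTO-labelled array). Of 20 tested, 12 were above 0 and 8 below, with a median of 0.08 that turned to between -0.12 and -0.0020 under 4 of 8 alternatives. Cxcr2, the receptor for Cxcl1, was past 2-fold, at least 2.17-fold higher on the FTO-labelled array with signals of 23.6 and 4.69. The signal of 23.6 was dim, against 14.0 for the dimmest probe well above background on that array. The spot error of the Cxcr2 log2 difference before the bound was 0.71. Ccr1, a receptor for Ccl5, was well above background on the control-labelled array only, with signals of 3.38 and 23.0, at least 1.68-fold lower on the FTO-labelled array.

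Of 32 other effectors that NF-κB can induce, 30 had a probe, 20 were well above background on both arrays, 3 on the control-labelled array only and 7 on neither. Ccl4, a chemokine for monocytes and T cells, was past 2-fold. Its signals were 90.2 on the FTO-labelled array and 34.8 on the control-labelled array, with a log2 difference of 1.24 and a spot error of 0.23, and its spot lies in an area where repeated spots lost signal on the FTO-labelled array. The signals of the list ran from 25.9 and 21.3 (Lta, a cytokine related to Tnf, with part of its repeated spots in such areas of both arrays) to 60731 and 49294 (Sod2, the mitochondrial superoxide dismutase, in an area of lost signal of the control-labelled array). Of the 23 tested 10 were above 0 and 13 below, with a median of -0.10. The neutrophil chemokines Cxcl2 (3.47 and 2.55) and Cxcl3 (5.47 and 5.04), like Cxcl1, were not well above background on either array. Csf1, a growth factor for macrophages, had 3 probes with log2 differences of 0.11, 0.34 and 0.35.

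The subunits and inhibitors of NF-κB, 12 genes from Rel (38.1 and 25.5) to Rela (25464 and 20990), were well above background on both arrays, 3 above 0 and 9 below, with 0 past 2-fold and a median of -0.06. The log2 difference was 0.50 for Rel (spot error 0.26) and -0.17 for Rela (spot error 0.20).

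Genes of other cell types that could bring in these transcripts were read from the same arrays. Of the 10 macrophage and leukocyte markers 9 had a probe and 7 were well above background on both arrays, Lyz2 (11.1 and 5.01) and Itgax (3.0 and 2.35) on neither. Before normalization, and with a ratio of 1.28 between the arrays as a whole, the summed signal of the 7 was 4711 on the FTO-labelled array and 3125 on the control-labelled array. Most of both sums came from 1 gene, Cd3e, a T cell gene. It had signals of 3906 and 2388 and differed by 0.30 (log2) after normalization. Ptprc, the common leukocyte antigen, stood at 33.7 and 38.0, in an area of lost signal of the FTO-labelled array, and Csf1r, the receptor for Csf1, at 322 and 322 on its brightest probe, with log2 differences of -0.30, -0.79 and 0.04 over 3 probes. Fcgr1, a macrophage receptor for antibodies, was past 2-fold, at 38.6 and 14.4, a log2 difference of 1.37 and a spot error of 0.32, in an area where repeated spots lost signal on the FTO-labelled array. The median of the 7 was -0.10, and -0.33 with the 75th percentile scaling. Of 6 endothelial markers 4 were well above background on both arrays, from Tek (18.0 and 21.7) to Kdr (1241 and 991), with a median over 5 tested of -0.06 with bounds, and of 6 fibroblast markers 4 were, from Col3a1 (35.7 and 42.4) to Col1a1 (515 and 362, in such an area), with a median of 0.06 that turned to -0.22 without the areas of lost signal and to -0.09 with the 75th percentile scaling. The part of other cells in the signals of the 10 genes was not tested.

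**Figure D4:**
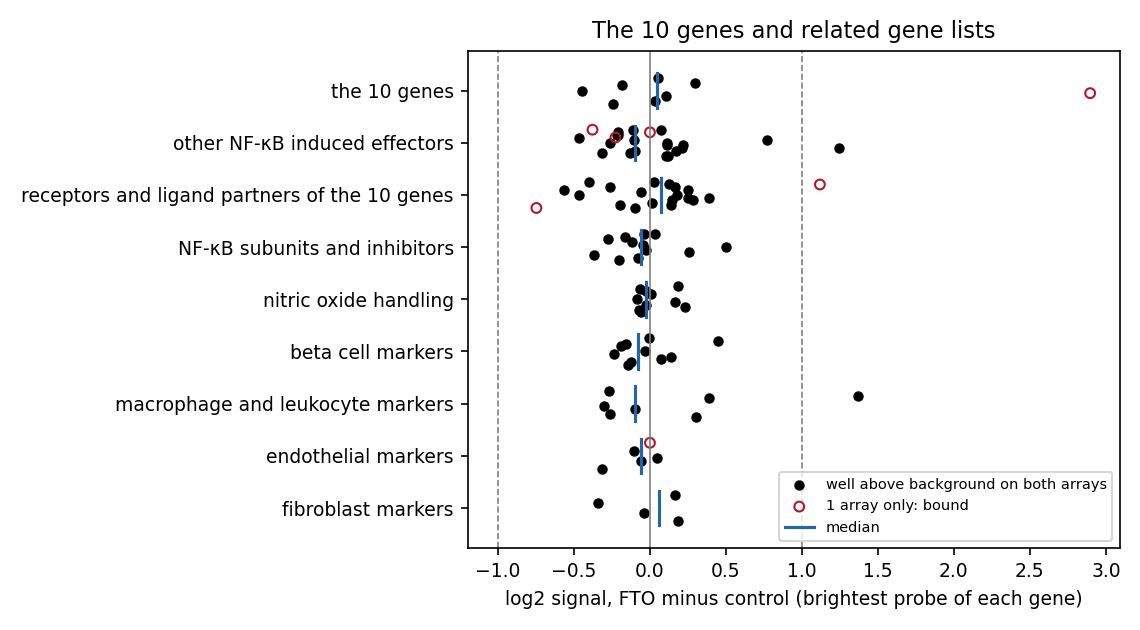
Log2 signal, FTO minus control, of the brightest probe of each gene in 9 lists, with filled points for genes well above background on both arrays, open points for bounds where 1 array only was well above background, blue lines for the median and dashed lines at 2-fold. The points beyond the dashed lines are Il1a (bound 2.90), Fcgr1 (1.37), Ccl4 (1.24) and Cxcr2 (bound 1.12), all on the side of the FTO-labelled array. Of all 18507 named genes tested, 136 were past 2-fold on that side by this rule and 178 on the other. Without bounds, 1 of the other effectors and 1 of the receptors and partners were more than 2-fold lower on the FTO-labelled array.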

How the data were processed

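Total RNA of MIN6 cells given the FTO lentivirus or the empty vector was measured on 1 Agilent array per condition, and groups were taken from the sample labels. The authors deposited the spot intensity of each array, from which Agilent Feature Extraction 11.0.1.1 (per the submitters' processing notes) had removed background and spatial trend, with no normalization between arrays. They also deposited log2 values of 33870 probes, by the methods quantile normalized in GeneSpring GX, which hold 8 of the 10 probes described here and were used as an alternative. Both arrays lay on 1 slide and share a scan.

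Control spots and outlier spots (148 on the FTO-labelled array, 141 on the control-labelled array) were left out, and no spot was saturated. For each probe the log2 intensities of its spots were averaged, and the 39417 probes were then quantile normalized (limma 3.58.1, R 4.3.3; Python 3.11.15, pandas 2.3.3, numpy 2.4.6, matplotlib 3.10.9). A probe counted as well above background where over 50% of its spots carried that flag. Probes were named through RefSeq accessions (27224 of 39417) in the annotation of GRCm38.p6. The array design uses an older build, so probe positions are not given. Genes well above background on either array were compared, and a difference over 2-fold was called. With 1 array per condition no test across samples was made. Areas of lost signal were blocks of 76 rows and 17 columns in which at least 15% of the spots of 79 repeated probes lay more than 0.5 (log2) below the median of their probe, a rule set after the distribution of calls had been seen.

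The 10 genes and the gene lists were chosen with earlier results of these data known. The genes named are the 10 genes, Fto, and from each list those past 2-fold and those with the highest and the lowest mean signal well above background on both arrays. One gene that this rule names is not reported here. Cmklr1, Degs2, Palld and the other list members named, among them Itgal, Itgam, Itgb2, Ccr1, Tnfrsf1a, Il6st, Cxcl2, Cxcl3, Csf1, Ptprc, Csf1r, Lyz2 and Itgax, were chosen after their values were seen. The calling steps were tested on simulated data before use. The alternatives were the 75th percentile scaling, cyclic loess, normexp with an offset of 50 on the median intensities, the authors' log2 values, a floor under dim signals, other filters and thresholds, and the areas of lost signal left out. The median of the spots and the outlier spots kept were added after seeing the data.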

Additional observations from a re-analysis of the deposited data

How the results depend on the processing

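Of 63 values of the 8 comparable genes under alternatives, 56 moved by less than the spot error (for the Il1a bound 0.21, the error of its spot on the FTO-labelled array counted for both arrays) and 7 by more, those of Il1a, Tnf, Nos2 and Icam1 with the 75th percentile scaling and of Il1a, Tnf and Icam1 with normexp. None of these turned the call of Il1a, whose log2 bound lay between 1.17 and 2.90. The count of genes past the fold limit was 1 with 9 of the alternatives, among them the lower limit of 1.5-fold. It was 0 when both arrays had to be well above background, which leaves Il1a out, and 2 with no filter, which adds Il6. The genes well above background numbered 7 and 6 on the FTO-labelled and control-labelled arrays without the areas of lost signal, which drops the Ccl5 spot, and 9 and 9 with the weaker flag. The median of the 8 genes lay between -0.13 and 0.05. No paired analysis was possible because there is 1 array per condition, so leaving out a replicate was not possible either. Signals near background limit what can be said of Il1a, Il6, Cxcl1 and Tnf.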
